A study of Mus musculus with 6 samples.

Results

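The genes described here encode the enzymes that cut, build and crosslink the extracellular matrix of the heart, together with the inhibitors of the matrix metalloproteinases. They were 47 of the 54532 genes in the deposited expression table, taken by symbol through GENCODE mouse release M21 and sorted by role. The roles were 12 metalloproteinases, 4 tissue inhibitors of metalloproteinases, 10 ADAMTS or ADAMTS-like genes, 6 crosslinking enzymes, 12 collagen processing genes and 3 other proteases. Their expression was read by RNA sequencing of left ventricular myocardium from 3 Chow mice and 3 HFpEF mice, 1 library per mouse and each from a separate animal. All were male C57BL/6 mice that were 6 to 8 weeks old at the outset. HFpEF mice, a model of heart failure with preserved ejection fraction, ate a high-fat diet (HFD) with 60% of its energy as fat and had L-NAME, which blocks nitric oxide synthases, in their water at 0.5 g/L. Chow mice ate standard chow and drank regular water, and both regimens ran for 12 weeks. No group received the diet or L-NAME alone, so the effects of the diet and the drug cannot be told apart.

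Matrix turnover in the heart depends on a balance between proteases and their inhibitors. Matrix metalloproteinases are zinc-dependent enzymes made as inactive precursors, and the secreted Timp proteins block them by binding the active site. New collagen is hydroxylated and folded in the endoplasmic reticulum, trimmed of its propeptides outside the cell, and then crosslinked by lysyl oxidases, which stiffens the fibre. Cardiac fibroblasts are the main source of most of these gene products.

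The values were FPKM, which scale reads to gene length and to a denominator for each library, and so allow levels to be compared between genes. Each library is called by its group and its replicate number. Read numbers recovered from the FPKM steps came to 13076772 to 15574914 in Chow and 13461735 to 16027084 in HFpEF. The denominators implied by those steps were not these read numbers. They were 11734336 to 14239712 in Chow and 13847565, 16942925 and 19316914 in HFpEF 1, 2 and 3. The ventricular cardiomyocyte markers Myh6, Tnnt2, Tnni3, Myl2 and Actc1 were present in every library, with a summed FPKM of 12259 to 13503 in Chow and 5982 to 9598 in HFpEF. HFpEF 3 stood apart from the other libraries. On the first principal component, which held 42.3% of the variance over all tested genes, it scored 75.5, against 11.6 and 12.7 for HFpEF 1 and 2 and -35.8 to -31.7 for Chow. Mitochondrially encoded genes took 7.17% of its reads, against 22.6% and 20.1% in HFpEF 1 and 2 and 24.0% to 26.0% in Chow. The results are therefore given with and without it.

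Most of the matrix enzyme genes were higher in HFpEF hearts, to a moderate degree in HFpEF 1 and 2 and more so in HFpEF 3. The median log2 fold change was 0.65 over the 41 genes that met the FPKM minimum of 0.5 in 3 libraries, against -0.01 over all 14227 genes tested. Without HFpEF 3 it was 0.41 over the same genes, against -0.01. The 6 genes under the minimum were Mmp8, Mmp12, Mmp13, Mmp16, Adamts4 and P4ha3. Adamts12 met it through the HFpEF libraries alone, as did 132 of all genes tested. Such a gene had to lie above Chow in every HFpEF library to be tested.

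No single gene of the 47 passed the limma test at a Benjamini-Hochberg adjusted p of 0.05, a level that 14 genes of the whole table passed (0.0984%). Nor did any reach that level together with a log2 fold change of 2 in either direction, which 8 genes of the table did (0.0562%). At an unadjusted p under 0.05, 17 of the 41 were higher in HFpEF, where 10.2% of all tested genes were, and Timp4 alone was lower, where 13.1% were. The counts by role below are to be read against these shares. On values rescaled between libraries, every HFpEF library lay above every Chow library for 22 of the 41 genes, and for 15.5% of all tested genes. The reverse held for Timp4, and for 19.8% of all tested genes. Among the 22, Adamts12 had to separate to be tested. Mmp16 and P4ha3, both under the minimum, also had all 3 HFpEF libraries above Chow. For genes without overlap the exact two-sided permutation p was 0.1, the smallest that 3 mice against 3 allow.

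HFpEF 3 held the highest value for 34 of the 41 genes, and for 30.5% of all tested genes. In that library 27 of the 41 reached at least 2-fold of the Chow mean (11.3% of all tested genes). In each of HFpEF 1 and HFpEF 2, 6 did, against 5.00% and 5.05% of all tested genes. HFpEF 1 and 2 both lay above all Chow libraries for 25 of the 41 genes, Adamts12 among them, against 20.4% of all tested genes. The fold sizes thus rested largely on HFpEF 3. These 25 genes were counted by their order in HFpEF 1 and 2, so that order is no further result. In 22 of them HFpEF 3 lay above all Chow libraries too, and in Mmp9, Adamtsl4 and Tgm2 it did not.

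**Figure D1:**
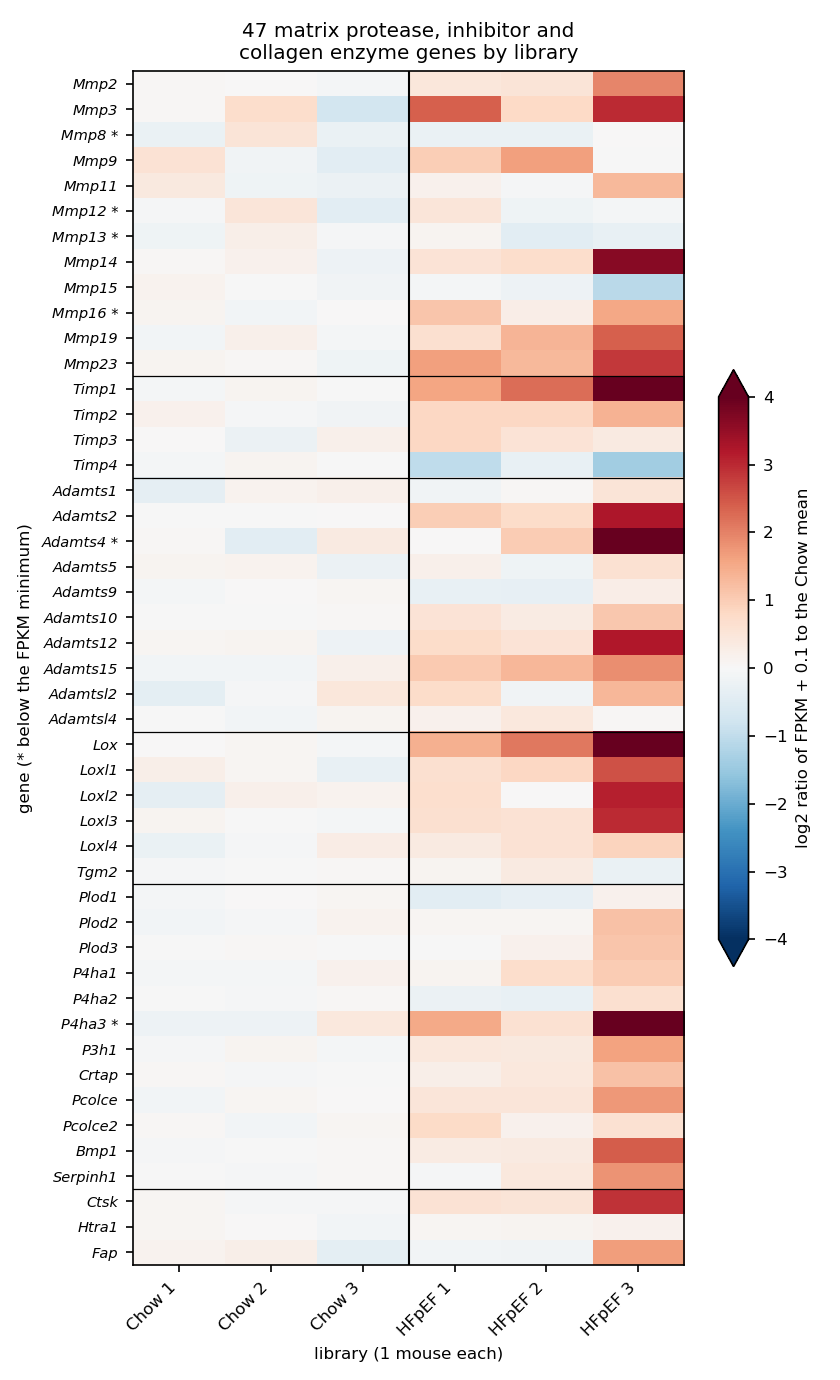
Heat map of the 47 genes (vertical axis, grouped by role, * for genes under the FPKM minimum) in the 6 libraries (horizontal axis), coloured by log2(FPKM + 0.1) minus its Chow mean and limited to 4 in either direction. Red cells are deepest in the HFpEF 3 column, where 27 of the 41 tested genes reached 2-fold or more, and paler in HFpEF 1 and 2, where 6 did in each. Some genes, such as Timp4 and Mmp15, lie below Chow in HFpEF 3.

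Metalloproteinase genes were led by Mmp15 and Mmp2 in Chow hearts, and Mmp2 was ahead of Mmp15 in every HFpEF heart. At an unadjusted p under 0.05, 4 of the 8 tested genes (Mmp2, Mmp3, Mmp19 and Mmp23) were higher and none lower, and the median log2 fold change was 1.22, or 0.81 without HFpEF 3. Mmp2 is the gelatinase that digests denatured collagen and basement membrane. Its FPKM was 30.8, 29.9 and 28.0 in Chow and 40.1, 42.3 and 115 in HFpEF, a mean of 29.6 ± 1.46 (SD, n = 3) against 65.8 ± 42.7 (SD, n = 3). All 3 HFpEF hearts lay above Chow, with HFpEF 1 and 2 at 1.36-fold and 1.43-fold of the Chow mean. On the log2 scale the fold change was 0.97 (SE 0.40, limma adjusted p = 0.21), and without HFpEF 3 it was 0.48 (SE 0.07, limma adjusted p = 0.0199). Mmp15, a membrane-type enzyme, had FPKM of 34.3, 30.8 and 28.4 in Chow and 29.5, 27.0 and 14.7 in HFpEF. Its groups overlapped, with HFpEF 3 the lowest library (log2 fold change -0.45, SE 0.27, limma adjusted p = 0.335). The ratio of Mmp2 to Mmp15 FPKM was 0.899, 0.971 and 0.985 in Chow and 1.36, 1.57 and 7.82 in HFpEF.

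Mmp14, the membrane-type enzyme that cleaves fibrillar collagen and activates the Mmp2 precursor, had the highest fold of its role group in HFpEF 3. FPKM was 4.98, 5.49 and 4.18 in Chow and 7.16, 7.92 and 61.8 in HFpEF. The groups did not overlap, but HFpEF 3 stood at 12.7-fold of the Chow mean, against 1.47-fold and 1.62-fold for HFpEF 1 and 2. Its log2 fold change was 1.63 (SE 0.80, limma adjusted p = 0.268) with all libraries and 0.62 (SE 0.14, limma adjusted p = 0.0485) without HFpEF 3. Mmp23, a small metalloproteinase anchored in the membrane and released by cleavage, was higher more evenly. FPKM was 3.30, 3.13 and 2.69 in Chow and 9.69, 7.54 and 22.2 in HFpEF, so that each HFpEF heart was at 2.48-fold or more of the Chow mean. The log2 fold change of 1.92 (SE 0.38) had a limma adjusted p of 0.0989, and without HFpEF 3 it was 1.47 (SE 0.15) with an adjusted p of 0.0132. Of the summed FPKM of the 12 Mmp genes, Mmp23 made up 4.06%, 4.09% and 3.93% in Chow and 9.70%, 7.90% and 9.37% in HFpEF, a share that differed little between the HFpEF hearts.

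Mmp19 and Mmp3 were low in Chow and higher in each HFpEF heart. Mmp19 acts on basement membrane proteins, and its FPKM was 0.656, 0.844 and 0.679 in Chow and 1.19, 2.00 and 4.22 in HFpEF (log2 fold change 1.46, SE 0.43, limma adjusted p = 0.141). Exons of opposite-strand genes cover 28.3% of its exon bases, and reads of the 2 strands cannot be told apart there, since the strand setting of the counting is not given in the sources used here. Mmp3, stromelysin-1, degrades proteoglycans and fibronectin and activates other metalloproteinase precursors. Its FPKM was 1.01, 1.66 and 0.551 in Chow and 5.57, 1.80 and 8.51 in HFpEF (log2 fold change 2.06, SE 0.61, limma adjusted p = 0.142). HFpEF 2 was barely above the highest Chow heart, and the other HFpEF hearts were well above it. Mmp16, another membrane-type enzyme, stayed at an FPKM of 0.520 or less, with 0.130, 0.0983 and 0.115 in Chow and 0.358, 0.157 and 0.520 in HFpEF.

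The remaining metalloproteinase genes overlapped between groups. Mmp9, the gelatinase of leukocytes and other cells, had HFpEF 3 in the Chow range, at an FPKM of 0.951 against 0.701 to 1.49 in Chow, while HFpEF 1 and 2 were at 2.02 and 3.27 (log2 fold change 0.87, SE 0.47, limma adjusted p = 0.306). Mmp11 ranged from 2.68 to 4.25 in Chow and from 3.10 to 7.96 in HFpEF. The collagenase Mmp13 and the macrophage elastase Mmp12 stayed at an FPKM of 0.51 or less in every library. Mmp8, the neutrophil collagenase, had 2 reads over the Chow libraries and 1 over the HFpEF libraries, and no fold is given for it.

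Mmp13, Mmp12, Mmp3 and Mmp8 lie in that order on the plus strand of chromosome 9, from 7272514 to 7568485 (GRCm38), yet only Mmp3 was higher in all HFpEF hearts. Their upstream sequences are shown because Mmp3 shares with neighbours that were barely expressed the AP-1 element, the motif of Fos and Jun proteins long described in metalloproteinase promoters. The sequences are the 250 bases before the RefSeq start (GRCm38.p6), with Timp1, the inhibitor with the largest log2 fold change, added for contrast. Capitals mark the AP-1 element TGANTCA, which reads the same on both strands, and the TATA box TATAAA on the strand of the gene. For Mmp12 RefSeq holds 2 starts, of which the one with a match is printed, and that window lies inside the GENCODE span of the gene. A match is one of letters only.
Mmp3 promoter, chr9:7445572-7445821, plus strand: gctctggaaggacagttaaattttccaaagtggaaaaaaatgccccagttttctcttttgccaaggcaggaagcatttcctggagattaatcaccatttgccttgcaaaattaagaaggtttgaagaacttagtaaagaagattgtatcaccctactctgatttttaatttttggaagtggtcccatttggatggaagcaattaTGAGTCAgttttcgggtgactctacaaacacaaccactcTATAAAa
Mmp12 promoter, chr9:7347124-7347373, plus strand: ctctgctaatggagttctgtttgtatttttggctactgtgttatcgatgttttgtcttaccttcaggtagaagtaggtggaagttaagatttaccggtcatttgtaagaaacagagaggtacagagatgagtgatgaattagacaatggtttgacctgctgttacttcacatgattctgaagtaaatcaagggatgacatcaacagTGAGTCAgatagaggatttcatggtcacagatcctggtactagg
Mmp13 promoter, chr9:7272264-7272513, plus strand: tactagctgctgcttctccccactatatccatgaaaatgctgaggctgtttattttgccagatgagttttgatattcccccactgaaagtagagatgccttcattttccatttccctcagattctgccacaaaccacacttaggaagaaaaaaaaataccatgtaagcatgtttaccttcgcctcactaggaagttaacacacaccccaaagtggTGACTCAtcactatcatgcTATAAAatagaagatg
Timp1 promoter, chrX:20869916-20870165, plus strand: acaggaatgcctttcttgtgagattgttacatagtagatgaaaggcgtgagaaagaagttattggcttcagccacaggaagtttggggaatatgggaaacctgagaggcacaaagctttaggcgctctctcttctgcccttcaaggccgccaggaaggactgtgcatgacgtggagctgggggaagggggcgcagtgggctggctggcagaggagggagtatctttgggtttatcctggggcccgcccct
The AP-1 element began 46 bases before the start in Mmp3, 44 in Mmp12 and 35 in Mmp13. A TATA box began 7 bases before it in Mmp3 and 16 in Mmp13. Of the 31 genes with a promoter entry, which had 34 promoters between them, these 3 held the AP-1 element. A gene counted if any of its promoters matched. Per promoter, the element was in 6.75% of the 32851 RefSeq promoters of the same length. By the same count TATAAA was found in 5 of the 31 genes (Mmp3, Mmp13, Adamts1, Adamtsl2 and Crtap), against 7.59% of all promoters. Both together were in Mmp3 and Mmp13, against 0.791% of all promoters. With the same element, Mmp3 was at 1.68-fold to 7.92-fold of its Chow mean in the HFpEF libraries, whereas Mmp12 (0.759-fold to 1.59-fold) and Mmp13 (0.673-fold to 1.08-fold) overlapped with Chow. The Timp1 window held neither motif.

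The 4 inhibitor genes went in both directions. Timp1, Timp2 and Timp3 were higher in every HFpEF heart and Timp4 was lower in every HFpEF heart, each at an unadjusted p under 0.05. Timp2, which inhibits metalloproteinases and also takes part with Mmp14 in activating Mmp2, was the most abundant. FPKM of Timp2 was 56.4, 48.3 and 44.9 in Chow and 88.0, 87.9 and 130 in HFpEF, a mean of 49.8 ± 5.90 (SD, n = 3) against 102 ± 24.4 (SD, n = 3). HFpEF 1 and 2 agreed closely, at 1.77-fold and 1.76-fold of the Chow mean, and HFpEF 3 was at 2.61-fold. The log2 fold change was 1.01 (SE 0.19, limma adjusted p = 0.0989), and 0.82 (SE 0.10, limma adjusted p = 0.0158) without HFpEF 3.

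Timp1 had the largest log2 fold change of the 41 genes. It encodes a secreted inhibitor of most metalloproteinases and lies at chromosome X, 20870166 to 20874735 (GRCm38), within an intron of Syn1 on the other strand. FPKM of Timp1 was 1.26, 1.44 and 1.30 in Chow and 4.23, 6.71 and 55.4 in HFpEF. The Chow hearts were nearly alike, and the HFpEF hearts were at 3.17-fold, 5.02-fold and 41.5-fold of their mean. These values rest on 14 to 16 reads in each Chow library and on 52, 101 and 951 reads in the HFpEF libraries. The log2 fold change was 3.04 (SE 0.89, limma adjusted p = 0.139), and 1.92 (SE 0.22, limma adjusted p = 0.0138) without HFpEF 3.

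Timp3, which stays bound to the matrix and also inhibits ADAM and ADAMTS enzymes, was the closest to Chow in HFpEF 3 of the 3 inhibitors that were higher. Its FPKM was 18.8, 15.8 and 21.6 in Chow and 33.2, 27.0 and 23.9 in HFpEF, without overlap and with HFpEF 1 the highest (log2 fold change 0.57, SE 0.17, limma adjusted p = 0.141). Exons of Syn3 on the other strand cover 21.3% of its exon bases. Timp4, an inhibitor known for its expression in the heart, had FPKM of 4.27, 4.92 and 4.46 in Chow and 2.18, 3.71 and 1.65 in HFpEF. All HFpEF hearts were below all Chow hearts (log2 fold change -0.91, SE 0.28, limma adjusted p = 0.148), as they were without HFpEF 3 (-0.66, SE 0.22, limma adjusted p = 0.138). The summed FPKM of the 5 ventricular cardiomyocyte markers was also lower in every HFpEF heart, and its part in the Timp4 values was not tested. In bulk tissue, fewer cells of a type and less RNA per cell cannot be told apart.

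The make-up of the inhibitor pool differed accordingly. Timp1 was 1.57%, 2.04% and 1.80% of the summed Timp FPKM in Chow and 3.31%, 5.36% and 26.3% in HFpEF. Timp4 was 5.28%, 6.98% and 6.17% in Chow and 1.71%, 2.96% and 0.782% in HFpEF, so that it exceeded Timp1 in each Chow heart and fell short of it in each HFpEF heart. The ratio of Timp1 to Timp4 was 0.297, 0.293 and 0.292 in Chow, a spread of 0.0024 (SD, n = 3), and 1.94, 1.81 and 33.6 in HFpEF. Timp1 had only 14 to 16 reads in each Chow library, so the closeness of the Chow ratios does not measure their precision. Timp2 held 62.1% to 69.8% of the pool in Chow and 61.7% to 70.2% in HFpEF, with overlap. Set against the protease, the ratio of Timp1 to Mmp2 was 0.0411, 0.0481 and 0.0466 in Chow and 0.105, 0.159 and 0.481 in HFpEF, whereas the ratio of Timp2 to Mmp2 overlapped, at 1.61 to 1.83 in Chow and 2.20, 2.08 and 1.13 in HFpEF.

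Among the ADAMTS genes, Adamts2, Adamts10 and Adamts15 separated the groups, while Adamts1, Adamts4, Adamts5, Adamts9, Adamtsl2 and Adamtsl4 did not. Adamts12 separated them too, but it met the FPKM minimum through HFpEF alone and so had to. At an unadjusted p under 0.05, 3 of the 9 tested genes were higher and none lower, and the median log2 fold change was 0.64, or 0.29 without HFpEF 3. Adamts2, which removes the amino-terminal propeptide of fibrillar procollagens, had FPKM of 4.33, 4.37 and 4.50 in Chow and 8.83, 7.43 and 41.9 in HFpEF. Chow was uniform (4.40 ± 0.0871, SD, n = 3) and HFpEF 1 and 2 were at 2.00-fold and 1.69-fold of it. The log2 fold change was 1.65 (SE 0.62, limma adjusted p = 0.188), and 0.86 (SE 0.10, limma adjusted p = 0.0147) without HFpEF 3. Adamts15, which cleaves versican and aggrecan, had the lowest adjusted p of the 41 genes. FPKM of Adamts15 was 1.21, 1.22 and 1.54 in Chow and 2.85, 3.45 and 5.08 in HFpEF, from 2.15-fold to 3.84-fold of the Chow mean (log2 fold change 1.42, SE 0.24, limma adjusted p = 0.0847). Without HFpEF 3 the log2 fold change was 1.19 (SE 0.18, limma adjusted p = 0.0200), and no HFpEF heart was close to Chow. Adamts10, which binds fibrillin-1 in microfibrils, had FPKM of 8.13, 8.17 and 8.52 in Chow and 12.1, 10.5 and 17.5 in HFpEF, again without overlap (log2 fold change 0.65, SE 0.19, limma adjusted p = 0.139, and 0.44, SE 0.09, limma adjusted p = 0.0409, without HFpEF 3).

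Adamts12, which cleaves cartilage oligomeric matrix protein, had FPKM of 0.418, 0.429 and 0.318 in Chow and 0.708, 0.611 and 4.34 in HFpEF. Its separation was small in HFpEF 1 and 2. Adamts4, an aggrecan- and versican-cleaving enzyme under the FPKM minimum, was at 0.106 to 0.258 in Chow, at 0.180 and 0.466 in HFpEF 1 and 2, and at 4.53 in HFpEF 3, which held 421 of its reads. Adamts1, Adamts5 and Adamts9, which also cleave versican, gave overlapping groups, with log2 fold changes of 0.14 for Adamts1, 0.21 for Adamts5 and -0.13 for Adamts9. Adamts1 made up 25.6% to 33.7% of the summed FPKM of the 8 Adamts genes in Chow and 20.9%, 25.4% and 13.5% in HFpEF, and Adamts2 14.2% to 15.7% and 22.4%, 20.0% and 44.1%. Adamts1 and Adamts10 shared the lead in Chow, and Adamts2 led in HFpEF 3. The most abundant gene of the role group in Chow, Adamtsl4, which lacks a catalytic domain and assists fibrillin-1 fibre formation, was at 14.2, 13.3 and 15.6 in Chow and 16.1, 19.3 and 14.7 in HFpEF, with overlap. Adamtsl2, a fibrillin-binding relative, ranged from 1.04 to 1.91 in Chow and from 1.25 to 3.64 in HFpEF.

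Of the 6 crosslinking genes, Lox and Loxl1 were higher in HFpEF at an unadjusted p under 0.05 and none was lower, while Loxl3 and Loxl4 separated the groups without reaching that level and Loxl2 and Tgm2 overlapped. The median log2 fold change was 1.30, and 0.53 without HFpEF 3. Lox oxidises lysine residues of collagen and elastin, the first step of covalent crosslinking. FPKM of Lox was 1.42, 1.47 and 1.32 in Chow and 3.92, 6.32 and 49.3 in HFpEF, or 2.79-fold, 4.50-fold and 35.1-fold of the Chow mean of 1.40 ± 0.0742 (SD, n = 3). Each HFpEF heart was far outside the Chow spread, and HFpEF 3 far outside that of the other HFpEF hearts. In limma the log2 fold change was 2.85 (SE 0.87, limma adjusted p = 0.147), and 1.75 (SE 0.22, limma adjusted p = 0.0154) without HFpEF 3. Loxl1, the family member needed for elastic fibre renewal, was the most abundant, with FPKM of 22.1, 20.0 and 15.4 in Chow and 29.6, 33.8 and 111 in HFpEF. Its groups did not overlap (log2 fold change 1.33, SE 0.49, limma adjusted p = 0.185, and 0.73, SE 0.16, limma adjusted p = 0.0516, without HFpEF 3). The ratio of Lox to Loxl1 was 0.0641, 0.0734 and 0.0860 in Chow and 0.132, 0.187 and 0.445 in HFpEF, and the share of Lox in the summed Lox family FPKM was 5.12%, 5.53% and 6.07% in Chow and 9.57%, 13.8% and 24.9% in HFpEF.

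Loxl3 and Loxl4 also separated the groups at low levels. Loxl3 had FPKM of 1.60, 1.46 and 1.40 in Chow and 2.37, 2.24 and 12.3 in HFpEF (log2 fold change 1.39, SE 0.63, limma adjusted p = 0.240), and exons of Htra2 on the other strand cover 11.6% of its exon bases. Loxl4 had 0.383, 0.465 and 0.608 in Chow and 0.634, 0.756 and 0.971 in HFpEF, a narrow gap that rests on 23 to 31 reads per Chow library. Loxl2, which acts on basement membrane and fibrillar collagen, had 2.14, 3.17 and 3.06 in Chow and 4.40, 2.79 and 24.7 in HFpEF, with HFpEF 2 inside the Chow range. Tgm2, the transglutaminase that joins glutamine to lysine residues, was the most abundant crosslinking gene in Chow, at 32.2, 33.1 and 34.3, and was at 35.9, 42.7 and 27.4 in HFpEF. HFpEF 3, the highest library for all 5 Lox genes, was the lowest for Tgm2 (log2 fold change 0.07, SE 0.17, limma adjusted p = 0.835). Opposite-strand exons cover 21.8% of the exon bases of Tgm2.

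**Figure D2:**
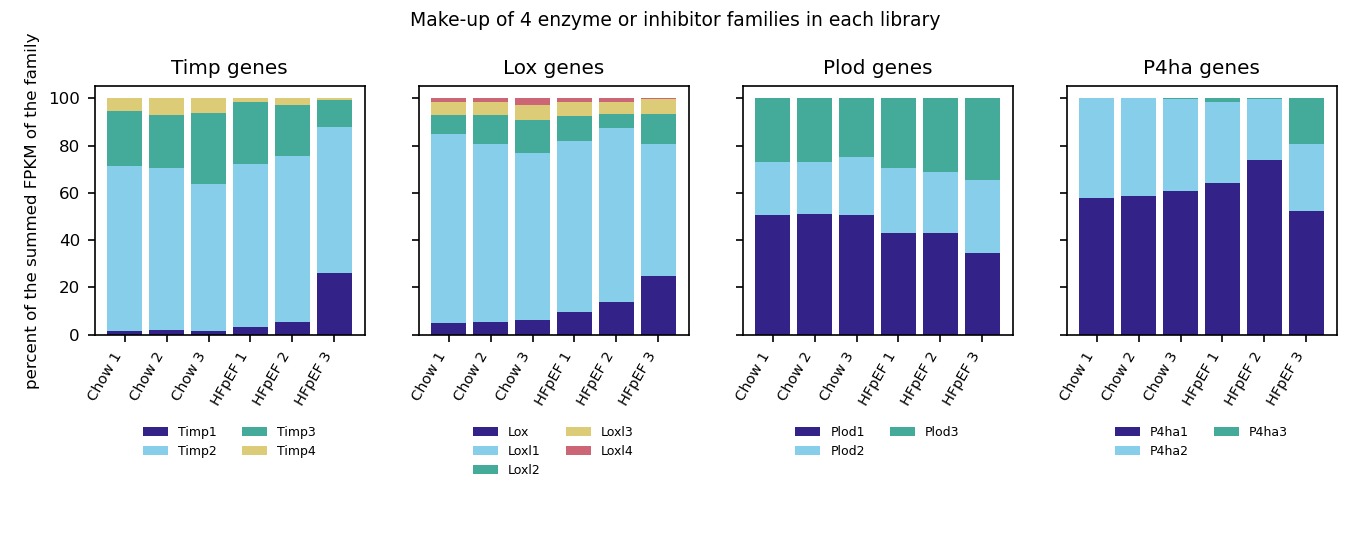
Stacked bars of each gene as a percent of the summed FPKM of its family (vertical axis, 0 to 100%) in the 6 libraries (horizontal axis), for the Timp, Lox, Plod and P4ha families. Timp1, Lox and P4ha3 take larger shares in HFpEF 3 (26.3%, 24.9% and 19.5%) than in any Chow library, and Plod1 and P4ha2 take smaller shares in all 3 HFpEF libraries.

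Of the 12 collagen processing genes, Bmp1, Pcolce, Pcolce2, P3h1, Crtap and P4ha3 were higher in every HFpEF heart, and the other 6 overlapped between groups. At an unadjusted p under 0.05, 5 of the 11 tested genes were higher and none lower, and the median log2 fold change was 0.61. Without HFpEF 3 the median was 0.32, with 5 higher and 2, Plod1 and P4ha2, lower (1451 and 2132 of all 14227 tested genes). Bmp1 removes the carboxy-terminal propeptide of procollagen and activates the Lox precursor. FPKM of Bmp1 was 6.63, 6.67 and 7.06 in Chow and 8.49, 8.65 and 36.5 in HFpEF, with HFpEF 1 and 2 at 1.25-fold and 1.27-fold of the Chow mean (log2 fold change 1.02, SE 0.55, limma adjusted p = 0.301). With HFpEF 3 left out the log2 fold change of Bmp1 was 0.33 (SE 0.08, limma adjusted p = 0.0601). Pcolce, which enhances cleavage by Bmp1, had 14.3, 16.0 and 15.6 in Chow and 21.3, 21.6 and 51.2 in HFpEF. HFpEF 1 and 2 were again alike and clear of Chow (log2 fold change 0.90, SE 0.34, limma adjusted p = 0.187, and 0.49, SE 0.08, limma adjusted p = 0.0225, without HFpEF 3). Pcolce2, the second enhancer, had 5.30, 4.83 and 5.43 in Chow and 8.81, 5.79 and 7.96 in HFpEF, and unlike Pcolce it was not highest in HFpEF 3.

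The prolyl 3-hydroxylase P3h1 and its partner Crtap, which act on collagen chains in the endoplasmic reticulum, were the intracellular genes that separated the groups at levels above the FPKM minimum. P3h1 had FPKM of 5.51, 6.14 and 5.42 in Chow and 7.57, 7.54 and 17.4 in HFpEF (log2 fold change 0.80, SE 0.32, limma adjusted p = 0.207). Crtap had 19.2, 18.0 and 18.6 in Chow and 21.8, 25.0 and 42.5 in HFpEF (log2 fold change 0.61, SE 0.24, limma adjusted p = 0.204). HFpEF 3 was the highest library for both. P4ha1, the main catalytic subunit of the prolyl 4-hydroxylase that stabilises the triple helix, had 8.95, 8.85 and 10.6 in Chow and 10.3, 15.4 and 19.0 in HFpEF. HFpEF 1 lay inside the Chow range, although the unadjusted p was 0.0339 (log2 fold change 0.61, SE 0.23, limma adjusted p = 0.187). P4ha2 was at 6.23 to 6.80 in Chow, at 5.51 and 5.31 in HFpEF 1 and 2, and at 10.2 in HFpEF 3, so the sign of its log2 fold change, 0.04, was set by that library (-0.26 without it).

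P4ha3, the scarcest catalytic subunit, was nearly silent in Chow. It had 0, 0 and 2 reads in the Chow libraries and 10, 4 and 429 in the HFpEF libraries, or FPKM of 0, 0 and 0.0527 against 0.230, 0.0753 and 7.08. Over the group totals, scaled by the denominators that the FPKM steps implied, the ratio was 168 (95% exact interval 46.3 to 1394, counting error only). Without HFpEF 3, on 14 reads, it was 8.65 (1.99 to 78.5). Nearly all reads of the gene thus came from 1 heart, where it made up 19.5% of the summed P4ha FPKM.

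Plod1, Plod2 and Plod3 hydroxylate lysine residues, the sites of later crosslinks and sugar attachment, and their proportions differed between the groups more plainly than their levels. Plod1 had FPKM of 15.1 to 16.8 in Chow, 11.8 and 12.8 in HFpEF 1 and 2, and 17.9 in HFpEF 3. With HFpEF 3 left out it was the only gene of the 41 that was lower at an adjusted p under 0.05 (log2 fold change -0.38, SE 0.08, limma adjusted p = 0.0472), and with all libraries the log2 fold change was -0.20 (SE 0.17, limma adjusted p = 0.496). As a share of the summed Plod FPKM, Plod1 was 50.5%, 51.0% and 50.8% in Chow and 42.9%, 43.0% and 34.5% in HFpEF, lower in all 3 hearts including HFpEF 3. Plod2, which hydroxylates the collagen telopeptides, was 22.2% to 24.3% in Chow and 25.6% to 31.2% in HFpEF, and Plod3 24.9% to 27.2% and 29.6% to 34.3%. FPKM of Plod2 and Plod3 themselves overlapped between groups, at 6.69 to 8.02 against 7.57 to 16.2 and at 8.13 to 8.47 against 8.15 to 17.9.

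Serpinh1, the collagen chaperone HSP47, was the most abundant of the 47 genes in Chow. Its FPKM was 77.0, 74.4 and 80.2 in Chow and 75.4, 104 and 267 in HFpEF, with HFpEF 1 inside the Chow range (log2 fold change 0.73, SE 0.44, limma adjusted p = 0.345). Its client Col1a1 was at 27.2, 25.6 and 24.9 in Chow and at 54.0, 87.2 and 2252 in HFpEF. The ratio of Serpinh1 to Col1a1 was therefore lower in every HFpEF heart, at 1.40, 1.20 and 0.118 against 2.83, 2.91 and 3.22 in Chow. The same held for Bmp1 (0.157, 0.0992 and 0.0162 against 0.244 to 0.284) and P4ha1 (0.190, 0.176 and 0.00844 against 0.329 to 0.425). The ratio of Lox to Col1a1 differed from these in being higher in HFpEF 1 and 2 (0.0725 and 0.0724) than in Chow (0.0521 to 0.0575), and lower in HFpEF 3 (0.0219).

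Of the 3 other proteases, Ctsk alone separated the groups on the rescaled values. Ctsk encodes cathepsin K, a lysosomal protease that cleaves triple-helical collagen. FPKM of Ctsk was 4.74, 4.34 and 4.32 in Chow and 6.73, 6.36 and 33.7 in HFpEF (log2 fold change 1.32, SE 0.62, limma adjusted p = 0.252, and 0.54, SE 0.09, limma adjusted p = 0.0287, without HFpEF 3). HFpEF 1 and 2 were clear of Chow by a small step and HFpEF 3 by a large one. Htra1, a secreted serine protease and the most abundant of the 3, was at 42.4, 40.5 and 37.3 in Chow and 42.5, 43.5 and 45.2 in HFpEF, a difference of 1.13-fold or less of the Chow mean. In the FPKM as deposited HFpEF 1 lay just above Chow 1, but after rescaling the groups overlapped. Fap, the fibroblast activation protein, was at 0.803 to 1.29 in Chow, at 0.995 and 0.980 in HFpEF 1 and 2, and at 3.64 in HFpEF 3.

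With HFpEF 3 left out, 11 of the 41 genes were higher at a limma adjusted p under 0.05, where 2.85% of all tested genes were, and 1 was lower, where 5.5% were. The 11 were Mmp2, Mmp14, Mmp23, Timp1, Timp2, Adamts2, Adamts10, Adamts15, Lox, Pcolce and Ctsk, and the 1 was Plod1. For the 11 higher genes the log2 fold changes ran from 0.44 for Adamts10 to 1.92 for Timp1. Among these 11 genes the largest differences in the standard error between the 2 fits were those of Timp1 (0.22 without HFpEF 3 and 0.89 with it), Mmp14 (0.14 and 0.80) and Lox (0.22 and 0.87).

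**Figure D3:**
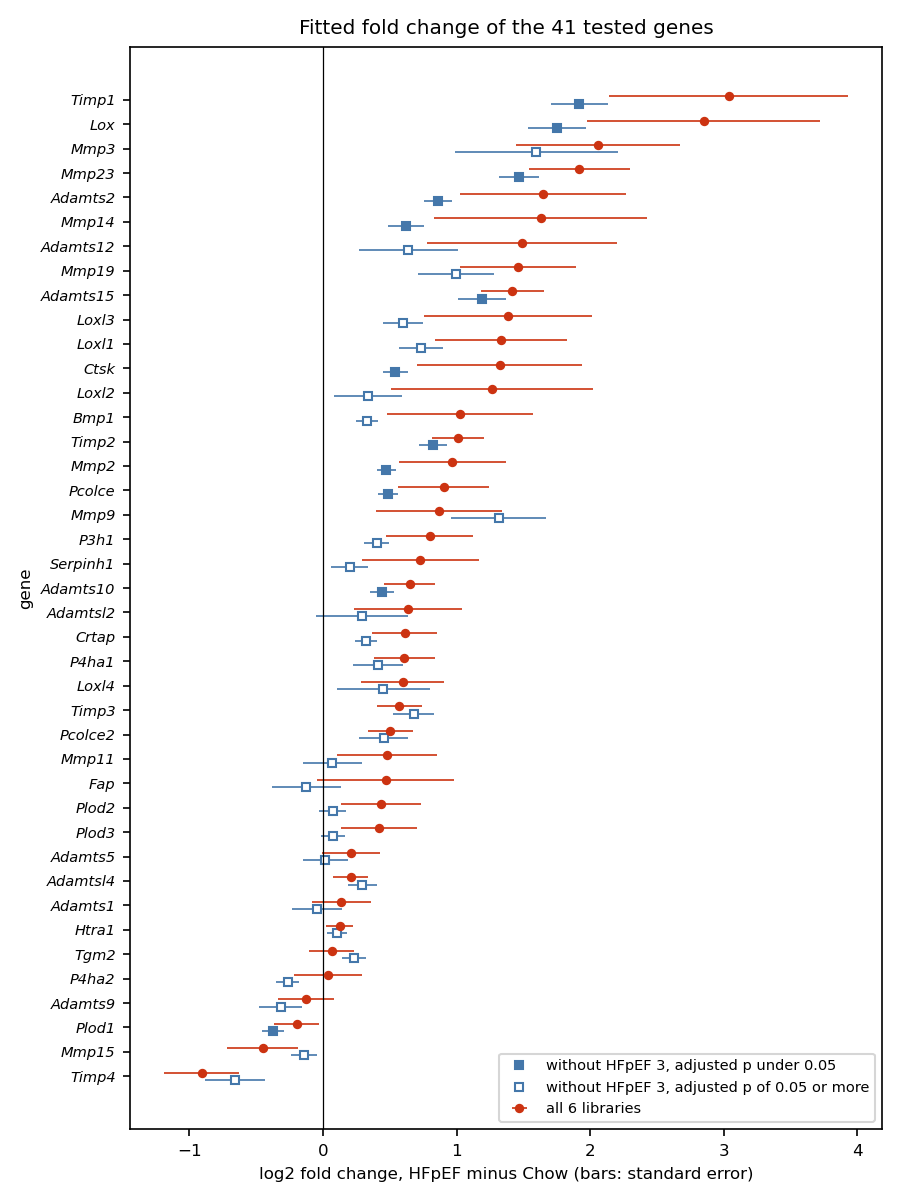
Fitted log2 fold change, HFpEF minus Chow (horizontal axis, bars for the standard error), of the 41 tested genes (vertical axis), with all 6 libraries in red and without HFpEF 3 in blue, filled where the adjusted p was under 0.05. Timp1 and Lox lie farthest to the right in both fits (3.04 and 2.85, against 1.92 and 1.75), and the blue bars are shorter for most genes.

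A further 64 genes of matrix proteolysis, its inhibitors and collagen maturation were read in the same way, of which 48 met the FPKM minimum. At an unadjusted p under 0.05, 11 of the 48 were higher, where 10.2% of all tested genes were, and 3 lower, where 13.1% were. None had an adjusted p under 0.05 in limma, and the median log2 fold change was 0.40, against -0.01 over all tested genes. Without HFpEF 3 that median was 0.15, against -0.01. In that fit 5 genes (Adamts19, Serpine2, P3h3, Fkbp14 and Sparc) were higher at a limma adjusted p under 0.05, where 2.85% of all tested genes were. Adamts19, an ADAMTS enzyme of heart valve tissue, met the FPKM minimum through the HFpEF libraries alone, so it had to differ to be tested. Its log2 fold change was 2.41 (SE 0.38, limma adjusted p = 0.0820), with FPKM of 0.196, 0.201 and 0.425 in Chow and 1.19, 2.14 and 2.34 in HFpEF. HFpEF 2 and 3 were alike, and the log2 fold change was 2.24 (SE 0.45, limma adjusted p = 0.0385) without HFpEF 3. Of the serpins, Serpinf1, which encodes pigment epithelium-derived factor, had 1.69 and Serpine2, a thrombin and urokinase inhibitor, 0.96. Plaur, the urokinase receptor, had 1.07 and the secreted protease Htra3 0.52. Among collagen maturation genes, P3h3 had 1.27, P3h2 0.86 and Fkbp14, a prolyl isomerase, 0.79. Adamtsl3 had 0.65 and Papln -0.68, the latter with all HFpEF hearts (2.42 to 3.06) below all Chow hearts (3.33 to 5.28).

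Cell type markers differed between the groups as well. The 8 fibroblast markers summed to an FPKM of 709 to 897 in Chow and to 1303, 1356 and 5177 in HFpEF, with 6 of 8 higher in all HFpEF hearts and none at 0. Col1a1 and Col3a1 carried the sum in HFpEF 3 (2252 and 1810), and the other 6 markers, summed apart after these values were seen, gave 646 to 827 in Chow and 1188, 1150 and 1114 in HFpEF. Pdgfra, which marks resident fibroblasts, was at 8.16, 7.97 and 6.28 in Chow and at 11.3, 11.6 and 12.99 in HFpEF, so HFpEF 3 differed little from the other HFpEF hearts by this marker. The 6 activated fibroblast markers summed to 67.5 to 94.1 in Chow and to 481, 82.8 and 744 in HFpEF (3 of 6 higher in all HFpEF hearts). Acta2, which smooth muscle also expresses, was most of that sum in every library but HFpEF 3. There it was at 262 and Postn at 356. The other 5 markers, likewise summed after the values were seen, gave 14.0 to 16.2 in Chow and 58.4, 34.0 and 482 in HFpEF. Per unit of Pdgfra, Timp1 was at 0.155 to 0.208 in Chow and 0.376, 0.579 and 4.27 in HFpEF, and Lox at 0.174 to 0.211 and 0.348, 0.545 and 3.80. By the same measure Mmp2 and Mmp14 overlapped between groups, since HFpEF 1 and 2 gave 3.56 and 3.65 for Mmp2 (3.75 to 4.46 in Chow) and 0.636 and 0.683 for Mmp14 (0.611 to 0.689 in Chow). Timp2 gave 6.05 to 7.15 in Chow and 7.82, 7.58 and 10.02 in HFpEF, a narrow separation.

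Macrophage markers summed to 214 to 275 in Chow and to 266, 360 and 901 in HFpEF (2 of 7 higher in all HFpEF hearts). Of the neutrophil markers, none separated the groups, Ngp, Elane and Ly6g were at 0 in every library, and Mmp8 was at 2 reads or fewer in each. Osteoclast markers, read because Ctsk is typical of that cell, summed to 0.646 to 1.44 in Chow and to 1.90, 1.75 and 3.45 in HFpEF, with 1 of 6, Acp5, higher in all HFpEF hearts. The 9 bone markers summed to 8.11 to 9.31 in Chow and to 6.91, 6.54 and 23.1 in HFpEF, with 2 higher in all HFpEF hearts (Spp1 and Phex), 1 lower (Alpl), and Bglap2 and Ibsp at 0 in every library. Phex had 0 reads in each Chow library and 6, 1 and 9 in HFpEF, so its separation rests on 1 read in HFpEF 2. Spp1, which macrophages also express, was at 0.103 or less in Chow and at 0.351, 0.609 and 17.4 in HFpEF. The 6 adipocyte markers summed to 0.0481 or less in Chow and to 88.9, 87.2 and 36.2 in HFpEF, all 6 without overlap. Mesothelial and epicardial markers summed to 17.1 to 25.7 in Chow and to 32.1, 121 and 55.8 in HFpEF (4 of 5 higher in all HFpEF hearts). Endothelial markers summed to 193 to 213 in Chow and to 153 to 160 in HFpEF (3 of 5 lower in all HFpEF hearts), and smooth muscle and pericyte markers overlapped, at 178 to 206 and 134 to 224. Tendon and valve markers summed to 7.20 to 7.95 in Chow and to 42.3, 9.97 and 25.2 in HFpEF (1 of 5 higher in all HFpEF hearts). Cartilage markers summed to 0.762 to 0.907 in Chow and to 3.21, 1.17 and 5.80 in HFpEF (1 of 8). HFpEF 3 was highest for the summed macrophage, activated fibroblast, osteoclast, bone and cartilage markers and, through its collagens, the fibroblast ones. Sox9 made up most of the cartilage sum, at 5.08 in HFpEF 3 and 2.36 in HFpEF 1. Spp1 made up most of the bone sum in HFpEF 3. That library was not highest for adipocyte, mesothelial or tendon and valve markers. The part of each of these cell types in the enzyme values was not tested.

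**Figure D4:**
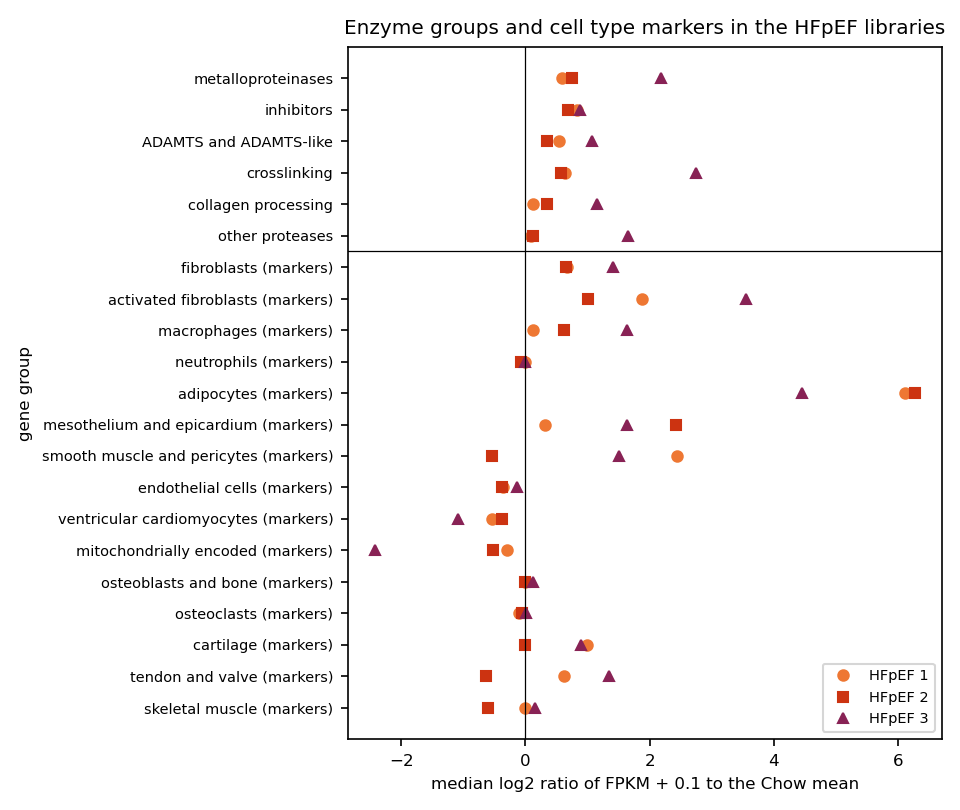
Median difference in log2(FPKM + 0.1) from the mean over Chow (horizontal axis) in HFpEF 1, 2 and 3 for the role groups of matrix enzyme genes and for marker lists of cell types (vertical axis). For metalloproteinase and crosslinking genes HFpEF 3 lies far to the right (2.17 and 2.75), as it does for activated fibroblast markers (3.55), whereas the inhibitor medians (0.82, 0.68 and 0.87) are taken over 4 genes that went both ways and do not show the 41.5-fold of Timp1 in HFpEF 3.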

How the data were processed

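Left ventricular myocardium was profiled in 3 Chow and 3 HFpEF mice, and all 6 libraries were used. Clean reads were aligned with HISAT2 and counted with featureCounts by the authors, who deposited FPKM per gene. The labels name GRCm38 (mm10). The annotation, the strand setting and the FPKM formula are not given in the sources used here. Ensembl identifiers were matched to GENCODE M21 (54495 of 54532). FPKM times exon length gave whole multiples of 1 read for 96.1% to 96.2% of values above 0 (relative tolerance 1e-06), from which read numbers were recovered. Median-of-ratios factors, by which the libraries were scaled, ran from 0.999 to 1.00. Overlap of the groups for single genes was judged on the scaled values, while FPKM are printed as deposited.

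Genes were tested where 3 or more libraries reached an FPKM of 0.5, on log2(FPKM + 0.1), a scale that understates the change of low genes, with limma 3.58.1 (eBayes with trend and robust options) in R 4.3.3, and p-values were adjusted over all 14227 tested genes by the method of Benjamini and Hochberg. A gene was called differential when, besides an adjusted p under 0.05, its log2 fold change was 2 or more in size. An exact two-sided permutation test was added for single genes. The fit was tested on simulated data. The members, lists and alternatives were chosen with earlier results of these data known. Library values were given for genes without overlap, with an unadjusted p under 0.05 or with a log2 fold change of 1 or more in size, and for the most abundant gene of each role. Of the further 64 genes, up to 10 without overlap and with an unadjusted p under 0.05 were named, by size of change. The alternatives used quantile normalization or no rescaling, pseudocounts of 0.01 and 1, all genes or an FPKM minimum of 1, a log2 fold change of 1 as the threshold, unadjusted p-values, plain eBayes, voom on the recovered reads, a replicate block, and 5 of the 6 libraries at a time. Promoter sequences came from RefSeq (GRCm38.p6), with entries for 31 of the 47 genes.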

Additional observations from a re-analysis of the deposited data

How the results depend on the processing

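The direction of the log2 fold change was kept in every alternative fit run for 37 of the 41 tested genes, 15 fits for each but Adamts12 and Loxl4, which had 14 because an FPKM minimum of 1 left them out. Fits on all genes, with an FPKM minimum of 1, with plain eBayes or with the replicate block could not change a sign. They alter the genes kept or the error, not the fitted fold change. The other tested genes changed sign when a library was left out. These were Adamts1 (-0.043 to 0.28, below 0 without Chow 1 or HFpEF 3), P4ha2 (-0.26 to 0.20, below 0 without HFpEF 3), Fap (-0.12 to 0.77, below 0 without HFpEF 3) and Tgm2 (-0.082 to 0.24, below 0 without HFpEF 2). The median of the 41 was 0.41 to 0.81 with a library left out and 0.59 to 0.72 under the other alternatives. Leaving out each library in turn gave 8 to 23 genes of the 41 higher at an unadjusted p under 0.05 (8 without Chow 2, 9 without Chow 1 and 23 without HFpEF 3, against 17), 0 to 3 lower, and 0 to 12 with an adjusted p under 0.05, the 12 without HFpEF 3. Over the whole table, 8 genes were called and 14 had an adjusted p under 0.05. Those counts were 2 and 3 with a pseudocount of 1, 3 and 5 with 0.01, 19 and 33 with eBayes without trend or robust options, and 0 and 0 with voom on recovered reads, where 3353 genes had an unadjusted p under 0.05. They were 2 to 59 and 2 to 1188 with a library left out, the highest without HFpEF 3. An FPKM minimum of 1 gave 5 called genes, a log2 fold threshold of 1 gave 14, and an unadjusted p gave 109. Same-numbered Chow and HFpEF libraries did not deviate together (correlations -0.04, -0.07 and -0.06), and they were treated as unpaired. With 3 libraries per group these values cannot show whether same-numbered samples shared a batch. With the replicate block, 2 genes were called and 2 had an adjusted p under 0.05, and the 17 and 1 unadjusted counts of the matrix genes did not move. The cause of these differences was not tested. At the depth of 13076772 to 16027084 reads per library, genes such as P4ha3 and Mmp8, with 2 reads over the Chow libraries, allow no precise fold.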
